A study of Mus musculus with 26 samples.

Results

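The cytosolic ribosomal protein genes encode the protein part of the ribosome that translates nuclear mRNAs. They were taken from the deposited table as the protein-coding genes whose mouse symbol is Rpl or Rps followed by a digit, or Rplp0, Rplp1, Rplp2 or Rpsa. Kinases of the Rps6k type and names with -ps were left out. The rule gave 86 members among 54532 genes, 34 with small-subunit names (Rps, Rpsa) and 52 with large-subunit names (Rpl, Rplp). A low-count filter kept 82 of them in each of the 4 comparisons on all libraries of the groups. Of the 4 others, Rpl36al had 187 counts over all libraries, Rpl3l had 57, Rpl39l had 18 and Rpl10l had 1. Rps19bp1 meets the letters of the rule but encodes a protein that binds S19, not a ribosomal protein, and it stays among the 34 in the counts given for small-subunit names. Fau and Rack1, for example, also encode proteins of the ribosome, but their symbols do not meet the rule.

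RNA was measured by RNA-seq in 26 libraries of untreated mice. Retina gave 6 libraries of immunoprecipitated (IP) RNA, meant to hold the RNA of retinal astrocytes, and 6 libraries of input RNA. The optic nerve head (ONH) and the optic nerve proper (ONP), its myelinated stretch, gave 7 libraries each of IP RNA, also meant to hold astrocyte RNA. Genotype, strain, age and the protein pulled down are not given in the sources used here. The retinal libraries and replicate 7 of ONH and of ONP, here called the bridging libraries, are labelled batch 2, with 14 libraries, and the other 12 optic nerve libraries batch 1. Per the series, the bridging libraries, labelled as adaptors, were sequenced with the retinal libraries to control for batch. What else a batch shared is not given. Since the labels do not say that libraries came from separate animals, p-values speak only of the spread among the libraries, which may be technical.

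A ribosome holds a copy of nearly every member, so cells make the proteins in step, and unassembled copies are degraded. In mammals the mRNAs of these genes start with a C followed by pyrimidines, the 5′ terminal oligopyrimidine (TOP) motif, through which the mTORC1 pathway, acting on the protein LARP1, controls whether they sit on ribosomes. Most are short and abundant.

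Start sites are shown because the TOP motif is the feature through which these mRNAs are known to be controlled together. Each line gives the 10 bases before and the 20 bases from an annotated start, in RefSeq's GRCm38.p6 (mm10), with an unbroken run of C and T that opens with C at the start in capitals. Rps27, Rps6, Rplp2, Rpl38, Rpl14 and Rpl28 have such a run at the start annotated there, and Rplp0 and Rpl7l1 are shown as examples of the 52 matched members that have none. Rps12, Rps19 and Rps28 have none either.
Rps27, chr3:90213629-90213658, minus strand: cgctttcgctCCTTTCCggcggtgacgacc
Rps6, chr4:86857348-86857377, minus strand: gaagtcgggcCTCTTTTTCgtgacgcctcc
Rplp2, chr7:141447641-141447670, plus strand: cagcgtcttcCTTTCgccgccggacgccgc
Rpl38, chr11:114668570-114668599, plus strand: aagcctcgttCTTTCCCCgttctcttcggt
Rpl14, chr9:120571507-120571536, plus strand: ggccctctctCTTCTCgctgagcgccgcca
Rpl28, chr7:4792955-4792984, plus strand: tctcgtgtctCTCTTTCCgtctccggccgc
Rplp0, chr5:115559457-115559486, plus strand: cgggtttcgaggaccgcctggttctcctat
Rpl7l1, chr17:46782637-46782666, minus strand: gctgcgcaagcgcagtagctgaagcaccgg

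RefSeq start sites were matched for 66 of the 86 members, and 10 of the 66 had several. A C at a start followed by at least 4 bases that are C or T was found in 14 of the 66 (21.2%), in 0 of 69 matched mitochondrial ribosomal protein genes, and in 3.01% of all 27025 matched genes. Many windows, such as that of Rplp0, hold a pyrimidine run some bases away from the annotated start. In the 250 bases before to 50 after the start, on either strand, the letters CCGGAAG, a core bound by ETS factors, stood in 39.4% of members, in 37.7% of mitochondrial ribosomal protein genes and in 9.93% of all genes. The letters GCCATNTT, the core of the YY1 motif, stood in 19.7%, 30.4% and 6.96% in the same order.

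The libraries differed in ways that touch these genes, and input replicates 1 and 2 stood apart. Mitochondrially encoded transcripts took 8.16% and 15.2% of their counts, against 2.79% to 4.01% in input replicates 3 to 6 and 0.155% to 2.23% in the retinal IP libraries. They also showed the fewest genes with a count of all 26 libraries, 16782 and 17082. The retinal fold changes are therefore given with and without them. Summed over 12 astrocyte markers, CPM (counts scaled to library size) ran from 6776 to 35490.5 in retina IP and from 4064 to 6688 in input. Rod markers, also 12, summed to 716 to 2952 CPM in retina IP and to 1141 to 13470 CPM in input. In the bridging ONH library they summed to 52489 CPM, against 106 to 910 CPM in the other ONH libraries. Markers of Mueller glia, 8 in all, summed to 7199 to 24733 CPM in retina IP and 3199 to 18190 CPM in input. Those of retinal ganglion cells, 10 in all, summed to 880 to 5114 CPM in retina IP and 3747 to 8974 CPM in input. Retina IP thus also held RNA with markers of other retinal cells. Total counts per library ran from 11164619 to 27431026.

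Members took a small part of each library. Their share of all counts was lowest at 0.800%, with a median of 0.832% and a highest of 0.993% in retina IP. In retina input the lowest was 1.17%, the median 1.31% and the highest 3.69%, so the groups did not overlap. Input replicates 1 and 2 held 3.20% and 3.69%, and the other 4 input libraries 1.17% to 1.34%. In ONH IP the share was 0.425% to 0.680% in batch 1 and 0.858% in the bridging library. In ONP IP it was 0.403% to 0.436% in batch 1 and 1.10% in the bridging library. The bridging library was thus above all 6 batch 1 libraries of its own region. In bulk RNA, fewer cells of a type and less RNA per cell cannot be told apart.

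**Figure D1:**
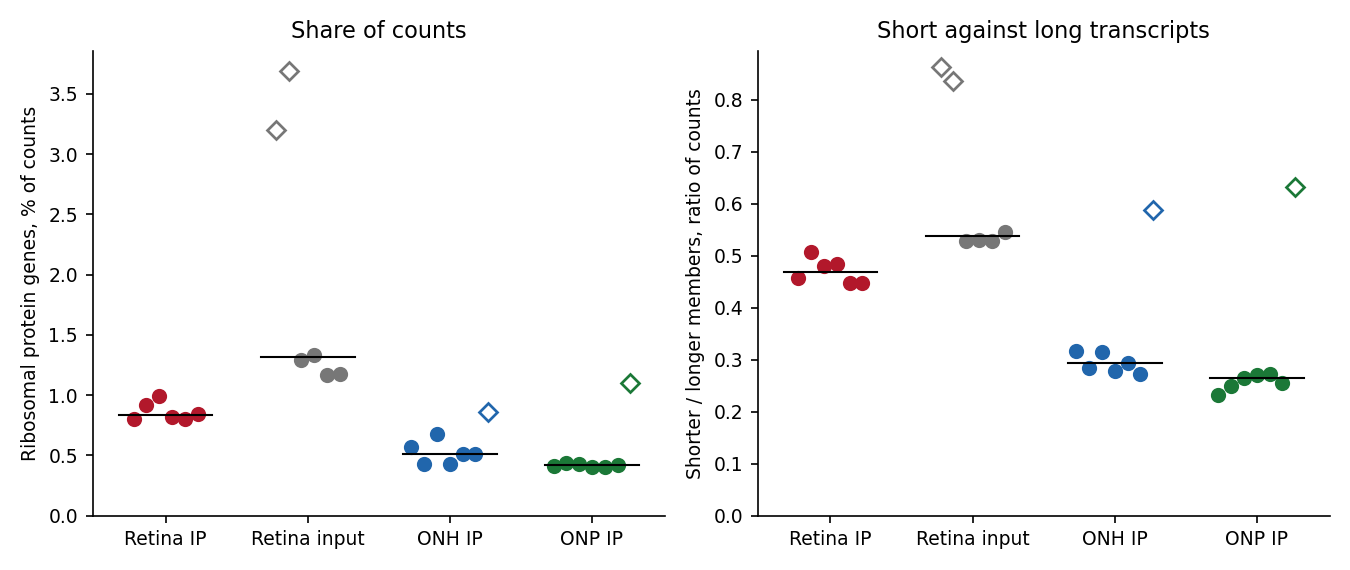
Left, share of all counts (percent) in the 86 ribosomal protein genes, and right, the ratio of counts in the 41 shorter to the 41 longer members, with 1 point per library and a line at the group median. Open diamonds mark input replicates 1 and 2 and the bridging libraries (ONH 7, ONP 7), which lie above the other libraries of their group in both panels.

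The balance of short and long members also differed between libraries. Members were split by the median length of their coding transcripts, 704 bases over the 82 tested, into 41 shorter and 41 longer. Counts in the shorter over counts in the longer were 0.448 to 0.507 in retina IP, 0.528 to 0.546 in input replicates 3 to 6, and 0.863 and 0.836 in input replicates 1 and 2. The batch 1 libraries had 0.272 to 0.316 in ONH and 0.233 to 0.273 in ONP, against 0.589 and 0.633 in their bridging libraries. Large-subunit counts over small-subunit counts were 1.64 to 1.74 in retina IP, 1.53 to 1.58 in input replicates 3 to 6 and 1.40 and 1.41 in input replicates 1 and 2. The part of length, batch and library preparation in what follows was not tested apart from the values given.

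Per kilobase of transcript, the highest level over all 26 libraries was that of Rpl3, which reaches into the peptidyl transferase centre (532 CPM per kb), followed by that of Rpl13, also of the large subunit (496 CPM per kb). The lowest were the paralogues Rpl3l (0.111 CPM per kb), Rpl39l (0.0759 CPM per kb) and Rpl10l (0.00231 CPM per kb). In mammals these paralogues of Rpl3, Rpl39 and Rpl10 are known from muscle or testis. Rps10 and Rpl24 were also near the floor, with 322 and 474 counts over all libraries. Of Rpl24's sequence, 82.2% of 31-base words also occur in other genes, and the annotated genes that share at least 50% of its words held 69.6% of the counts found between them and Rpl24. For Rps27rt the share was 98.2%, because 91.6% of its words occur in Rps27, which held 30827 counts beside 573 for Rps27rt, so its level cannot be read as its own. For 83 of the 86 members the share was under 5%. That share leaves out genes with fewer words in common, and 36 members had over 50% of their words in other genes. Rpl41 shares 37.7% of its words with the noncoding gene Gm10076, which held 19380 counts beside 60216 for Rpl41, so its level is uncertain. So is that of Rps25, which shares 30.9% of its words with Trappc4. Trappc4 held 68786 counts beside 58810 for Rps25. The same limit, with fewer counts in the other gene, holds for Rplp2 and Rpl31, among others. Rplp2 shares 33.1% of its words with Wdr89, which held 4500 counts beside 35592 for Rplp2. Rpl31 shares 25.0% with Tbc1d8, which held 6580 counts beside 28290 for Rpl31. Within retina IP the coefficient of variation over 6 libraries had a median of 0.127 across the 82 members. It was 0.0502 for Rpl31 and 0.0504 for Rpl7, and 0.593 for Rps27l, whose values are given below.

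The first comparison, retina IP against retina input, asked how the pulled-down RNA differed from total RNA of the same tissue. With all 12 libraries, 81 of 82 estimates were negative, with a median log2 fold change of -1.60, beside 0.02 over all 15181 genes tested. None of the members passed edgeR's quasi-likelihood test at an adjusted p under 0.05, and neither did any other gene (0% of genes called). At an unadjusted p under 0.05, 73 members were lower (89% of members, against 10.4% of all genes) and 0 were higher (against 11.7% of all genes). In 58 members every IP library lay below every input library, which held for 2.9% of all genes. DESeq2 called 65 members lower (7.12% of genes called lower). A fit of all 26 libraries called 75 (8.46% of genes), and the edgeR fit without the low-count filter called 11 (0.147% of genes).

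Without input replicates 1 and 2 the difference was smaller and passed the test for some members. The median log2 fold change was -0.51, beside -0.00 over 15881 genes, and 75 of 82 estimates were negative. Members called lower numbered 11 (13.4% of members, against 0.302% of genes called lower), and 0 were called higher (against 0.0063%). At an unadjusted p under 0.05, 53 were lower (8.3% of all genes). In 58 members the IP libraries again all lay below the input libraries, which held for 6.01% of all genes. The 11 called members were Rps19, Rps12, Rps28, Rps20, Rps29, Rps3a1 and Rps7 of the small subunit and Rpl37, Rpl32, Rpl14 and Rplp1 of the large subunit. Leaving out a further library gave 0 to 14 calls, and 0 for 7 of the 10 libraries, while the median stayed between -0.53 and -0.47.

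**Figure D2:**
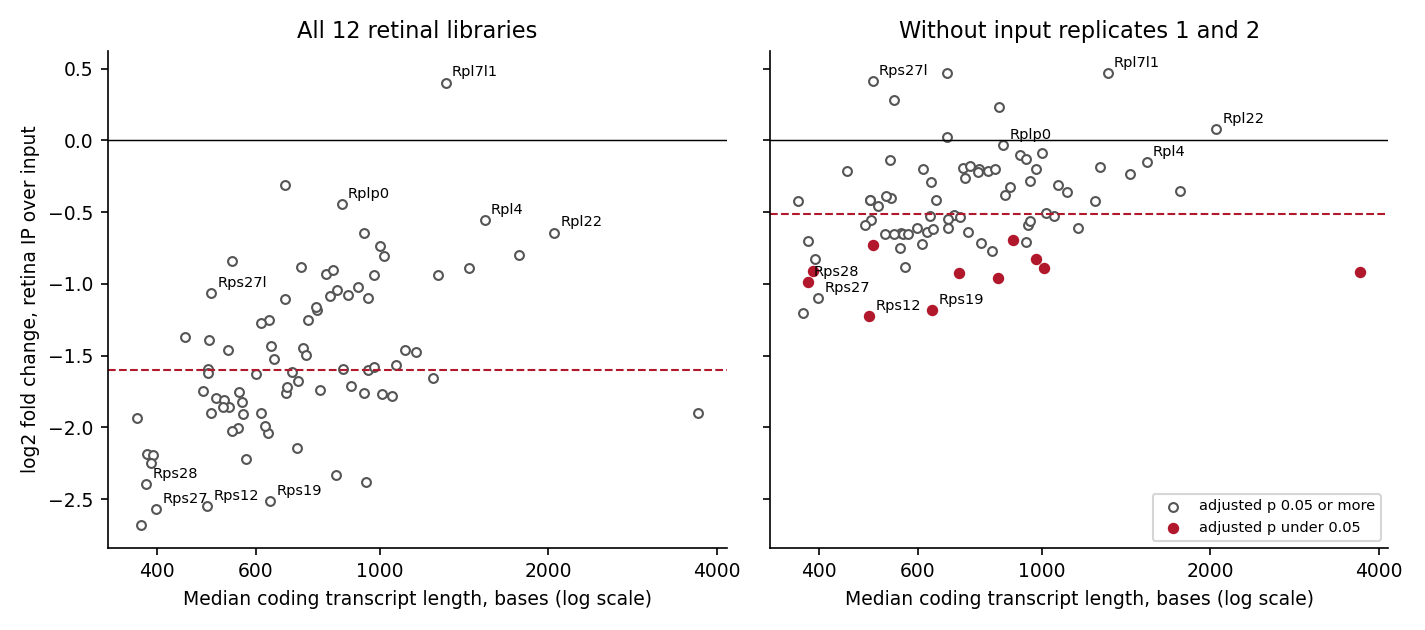
Difference of retina IP from input, as a log2 fold change, for 82 members against transcript length in bases (log scale), with all 12 libraries on the left and without input replicates 1 and 2 on the right. Points are members, red where the adjusted p is under 0.05, and the dashed lines mark the medians of -1.60 and -0.51; Rpl7l1 lies above 0 in both panels.

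Among members with small-subunit names, 31 of 34 were lower at an unadjusted p under 0.05 with all libraries (10.4% of all genes). Without input replicates 1 and 2, 25 of 34 were lower (8.3% of all genes). The medians were -1.61 and -0.56. Rps19 (ENSMUSG00000040952, chromosome 7, 24884371 to 24889806, plus strand), the gene most often mutated in Diamond-Blackfan anaemia, had 77.9, 108 and 132 CPM as lowest, median and highest in retina IP. In retina input it had 236, 268 and 1995 CPM. The groups did not overlap, and the highest IP library was below the lowest input library, which was one of replicates 3 to 6. Its log2 fold change was -2.52 (SE 0.547, adjusted p = 0.057, edgeR) with all libraries and -1.18 (SE 0.202, adjusted p = 0.0418) without input replicates 1 and 2.

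Rps12 (ENSMUSG00000061983, chromosome 10, 23785183 to 23787275, minus strand), whose fly counterpart acts in cell competition in Drosophila, had 11.3, 13.7 and 17.2 CPM in retina IP and 31.4, 38.4 and 199 CPM in input. No IP library reached the lowest input library. The log2 fold change was -2.55 (SE 0.527, adjusted p = 0.057) and, without input replicates 1 and 2, -1.22 (SE 0.212, adjusted p = 0.0433). Rps27 (ENSMUSG00000090733, chromosome 3, 90212522 to 90213651, minus strand), a zinc-finger protein of the small subunit, had 31.5, 49.4 and 63.4 CPM in retina IP and 99.6, 115 and 930.5 CPM in input, again without overlap. Its log2 fold changes were -2.57 (adjusted p = 0.057) and -1.10 (adjusted p = 0.0648), so it missed the threshold either way.

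Rps28 (chromosome 17, 33819027 to 33824562), a short small-subunit gene, had 20.9, 24.9 and 30.9 CPM in retina IP and 47.1, 55.7 and 384 CPM in input. Rps20 (chromosome 4, 3831334 to 3835665), which lies in the head of the subunit, had 36.2, 40.2 and 51.0 CPM in retina IP and 79.1, 84.7 and 419.5 CPM in input. In neither gene did the groups overlap. The log2 fold change of Rps28 was -2.39 (adjusted p = 0.057) with all libraries and -0.99 (adjusted p = 0.0418) without input replicates 1 and 2. That of Rps20 was -1.90 (adjusted p = 0.057) and -0.92 (adjusted p = 0.0405).

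The small-subunit members in this paragraph differed less than those above, which were chosen for the smallest unadjusted p. Rps6, the substrate of the S6 kinases downstream of mTORC1, had 148.5, 179 and 194 CPM in retina IP and 220, 240 and 831 CPM in input, with no overlap. Its log2 fold change was -1.08 (adjusted p = 0.1), and -0.33 (adjusted p = 0.158) without input replicates 1 and 2. Rps3, at the mRNA entry channel, was at -1.10 and -0.28 on the same scale, and Rps27a, which is made fused to ubiquitin, at -1.67 and -0.53. Rps4x, on the X chromosome, was at -0.94 and -0.20. Rpsa, also described as a laminin receptor, was at -0.80 and -0.35. Rps19bp1, the S19-binding protein, was at -1.04 and 0.24.

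Large-subunit members had medians of -1.54 with all libraries and -0.42 without input replicates 1 and 2. At an unadjusted p under 0.05, 42 and 28 of the 48 tested were lower, beside 10.4% and 8.3% of all genes. Rpl3 (ENSMUSG00000060036, chromosome 15, 80077791 to 80091868, minus strand) had 319, 354 and 424 CPM in retina IP and 587, 689 and 1375 CPM in input. Every IP library was below every input library. The log2 fold change was -1.08 (SE 0.258, adjusted p = 0.0581), and -0.77 (SE 0.146, adjusted p = 0.058) without input replicates 1 and 2, short of the threshold either way. Rpl5 and Rpl11, which form the 5S particle and restrain Mdm2, were at -0.89 and -1.45 with all libraries, and at -0.24 and -0.26 without input replicates 1 and 2. Rpl10, which joins the subunit late, was at -0.88 and -0.19. Rpl4, which lines the exit tunnel, was at -0.55 and -0.15, and Rpl38, needed for Hox mRNA translation in mouse embryos, at -1.94 and -0.43. Rpl10a and Rpl22 are carriers of the tags used in common ribosome pull-downs, and no value here tells which was used. Rpl10a was at -1.25 and -0.29. Rpl22 was at -0.64 with all libraries and at 0.08 without input replicates 1 and 2.

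The 3 stalk proteins, which recruit elongation factors, did not move by the same amount. Rplp1 (ENSMUSG00000007892, chromosome 9, 61913284 to 61914542, minus strand) had 63.5, 69.4 and 84.4 CPM in retina IP and 120, 129 and 668 CPM in input, without overlap. Its log2 fold change was -1.90 (adjusted p = 0.0626), and -0.73 (SE 0.125, adjusted p = 0.0418) without input replicates 1 and 2. Rplp2 was at -1.37 and -0.21. Rplp0 (ENSMUSG00000067274, chromosome 5, 115559467 to 115563727, plus strand), the protein that anchors the other stalk proteins and a common reference gene in PCR, had 234, 326 and 470 CPM in retina IP and 347, 377 and 994 CPM in input. These groups overlapped, and its log2 fold changes were -0.44 (adjusted p = 0.445) and -0.03 (adjusted p = 0.947). Rplp0 thus lay outside the pattern of most members, though the difference between it and Rplp1 was not tested.

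Paralogues of usual ribosomal proteins were spread over the range of the family. Rpl7l1 (ENSMUSG00000063888, chromosome 17, 46773907 to 46782672, minus strand) had 95.6, 112 and 172 CPM in retina IP and 72.7, 94.6 and 150 CPM in input, and the groups overlapped. It was the only member with a positive estimate with all 12 libraries, at 0.40 (SE 0.254, adjusted p = 0.382), and was at 0.47 (adjusted p = 0.258) without input replicates 1 and 2. Rpl7 was at -0.74 and -0.09. Rps27l, a paralogue of Rps27 and a target of p53, had 10.4, 22.6 and 44.7 CPM in retina IP and 17.7, 21.9 and 176 CPM in input. It was at -1.06 (adjusted p = 0.349) with all libraries and at 0.41 (adjusted p = 0.647) without input replicates 1 and 2. Rps27rt, whose counts cannot be told apart from those of Rps27, was at -2.68 and -1.20, and neither passed the test. Rpl22l1, which can take the place of Rpl22, was at -1.85 and -0.40, while Rpl36a and Rpl39, whose paralogues were under the filter, were at -1.75 and -1.90 with all libraries and at -0.59 and -0.72 without the pair of inputs.

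**Figure D3:**
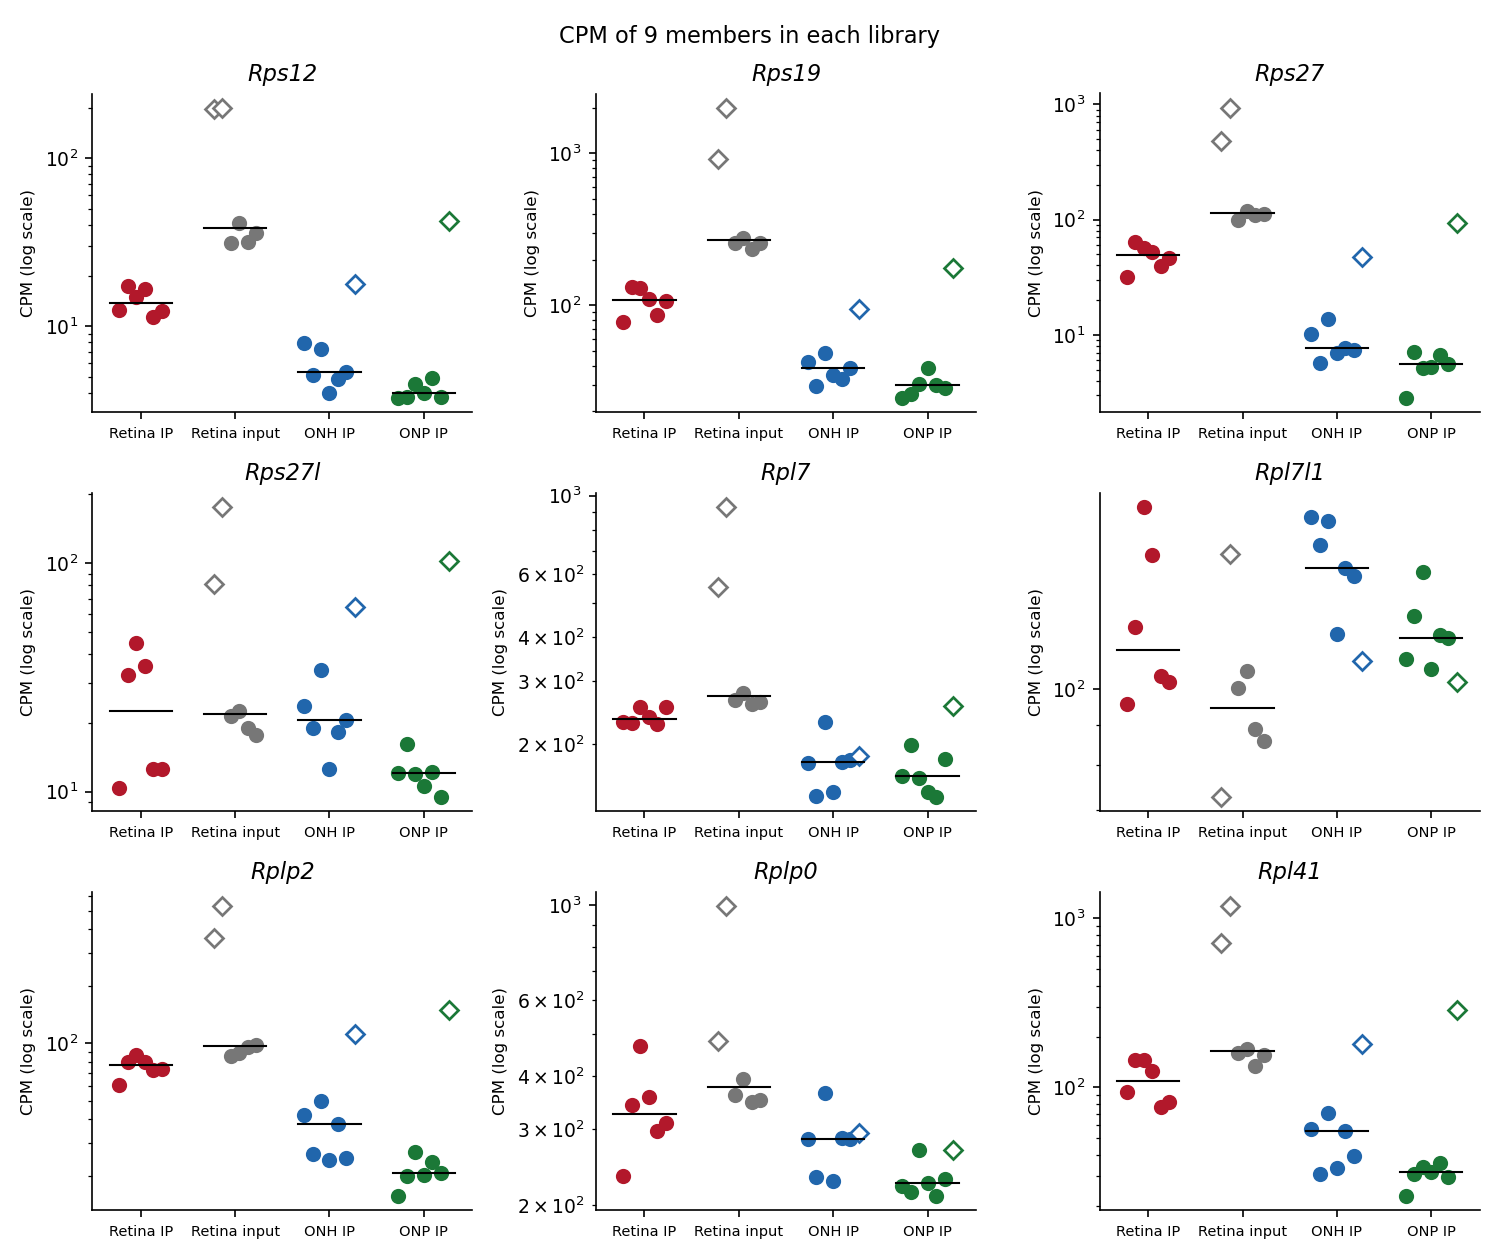
CPM on log axes of 9 members, 1 point per library, with a line at the group median; open diamonds are input replicates 1 and 2 and the bridging libraries. Rps12, Rps19 and Rps27 show retina IP wholly below retina input, while Rplp0, Rps27l and Rpl7l1 overlap between these groups.

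Across the 82 members, fold changes were less negative at longer transcripts. Spearman's rho was 0.54 with all libraries and 0.33 without input replicates 1 and 2, where the points share the same libraries and differ in depth. Members were then set beside other short genes. The 582 short protein-coding genes tested, those whose longest coding transcript is under 1000 bases, had a median of -1.15 with all libraries, and the 607 tested without input replicates 1 and 2 had a median of -0.03. The 77 mitochondrial ribosomal protein genes tested had medians of -0.76 and 0.03. The 26 nuclear genes of oxidative phosphorylation had medians of -1.56 and -0.30, with 0 called either time. The 19 mitochondrially encoded genes tested had medians of -2.83 and -1.51. Microglia markers, 12 in all, summed to 122 to 208 CPM in retina IP and 177 to 1368 CPM in input, and their part in the members' values was not tested.

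Other genes of translation were described from lists. Of 25 translation factors and other genes with TOP mRNAs, 11 were lower and 1 higher at an unadjusted p under 0.05, with a median of -0.70. Without input replicates 1 and 2, 6 were lower and 1 higher, with a median of -0.19, and edgeR called 0 in both fits. Among them Fau, which encodes S30 fused to a ubiquitin-like protein, was at -1.39 with all libraries and -0.23 without input replicates 1 and 2. Tpt1, an abundant TOP mRNA, was at -1.23 and -0.44. Eef1a1, the main elongation factor, was at -0.42 and -0.21. Gas5, a noncoding snoRNA host gene with a TOP start, was at -2.54 (adjusted p = 0.057) and -1.11 (adjusted p = 0.0878). Of 19 initiation and recycling factors without a known TOP, 3 were lower and 0 higher (median -0.20), and without the pair of inputs 2 and 0 (median -0.14). Ribosome biogenesis genes, 25 in all, had 2 lower and 1 higher (median 0.21), and without the pair of inputs 1 and 3 (median 0.10). The 18 genes of the mTOR pathway and TOP regulators had 1 lower and 0 higher (median 0.24), and without the pair of inputs 1 and 1 (median -0.06).

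**Figure D4:**
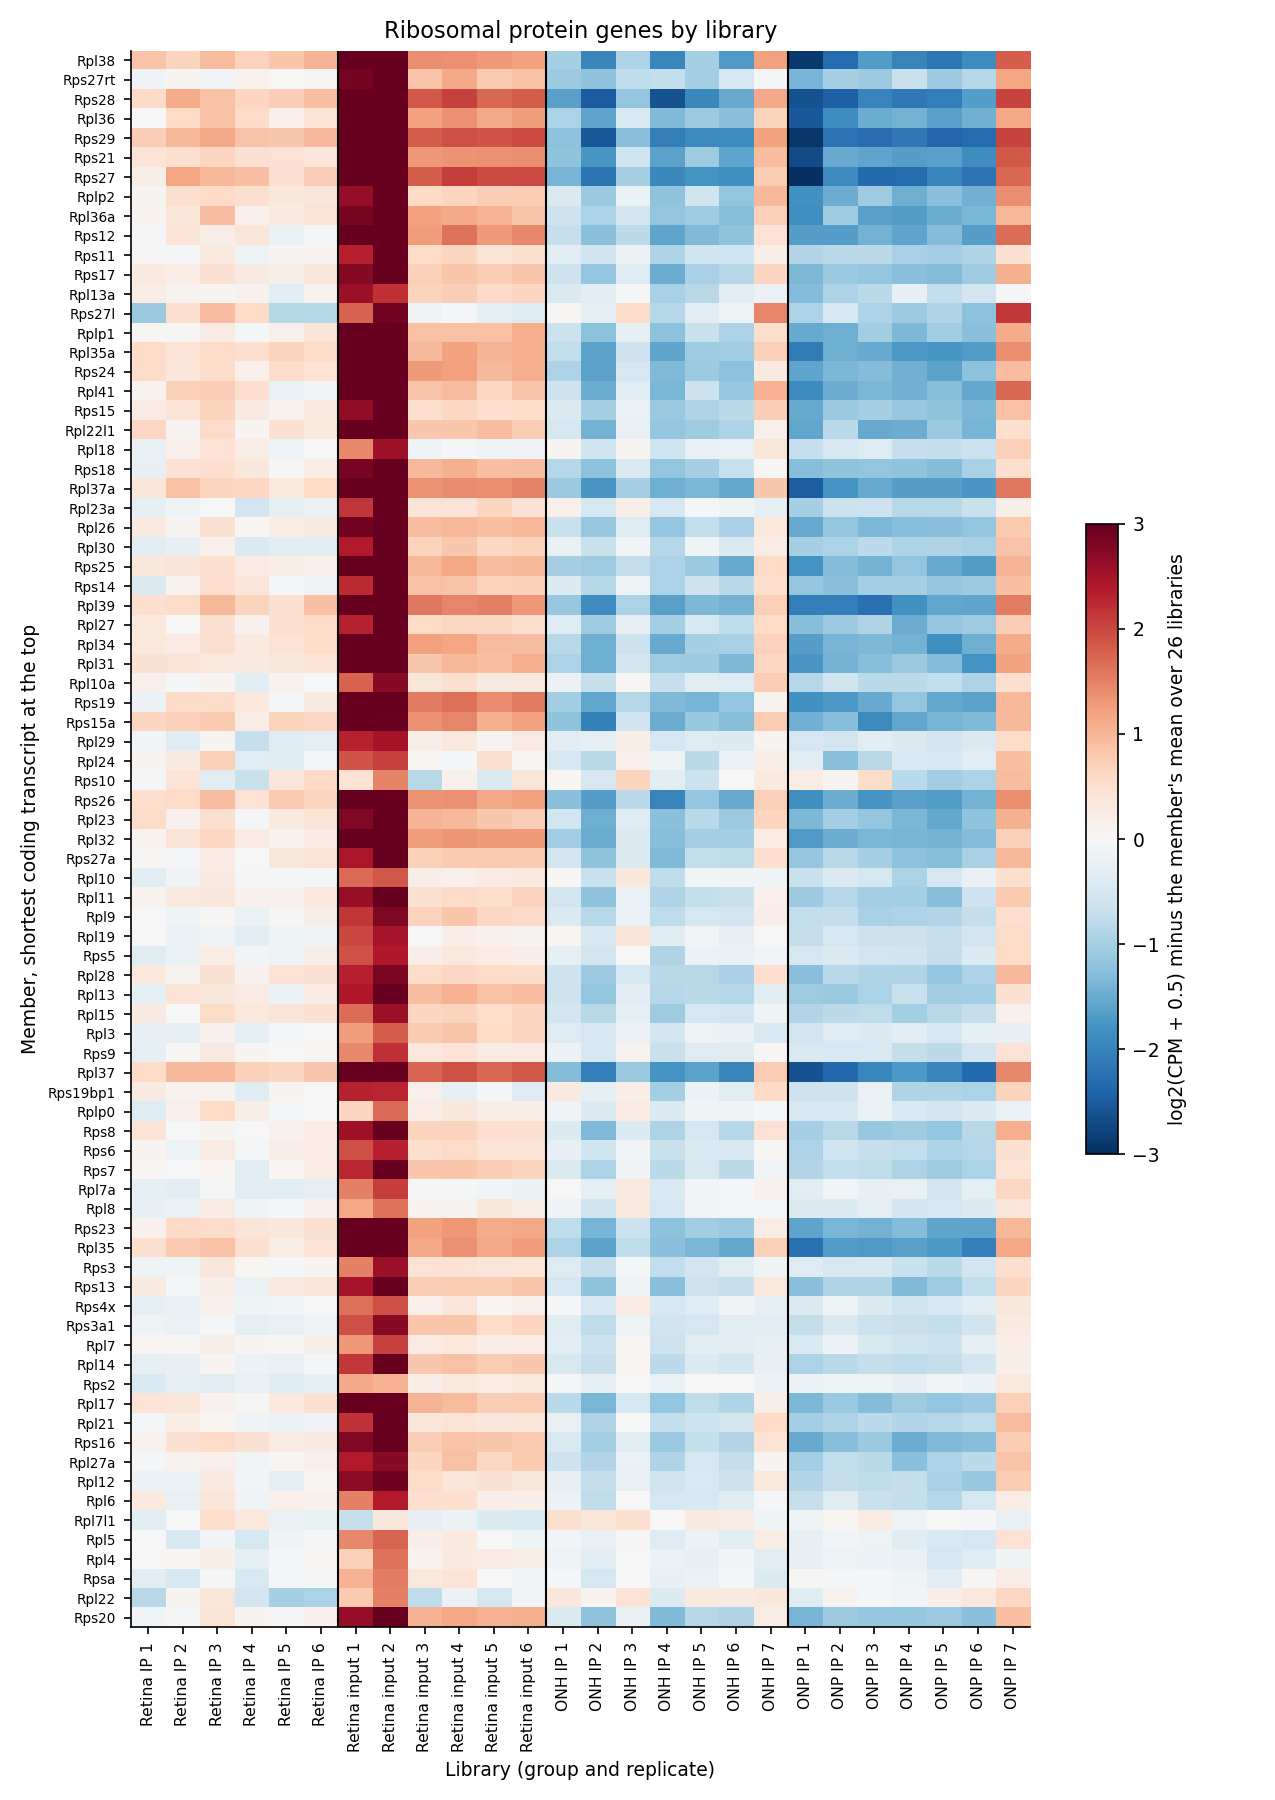
log2(CPM + 0.5) of each of 81 members in each of 26 libraries, less the member's mean over all libraries, with members from the shortest transcript at the top to the longest at the bottom. Input replicates 1 and 2 are the reddest columns, batch 1 optic nerve libraries are bluest for short members such as Rps27, Rps28 and Rps29.

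The next comparisons set retina IP against IP from the optic nerve. Each took in the 20 IP libraries and a term for batch, so they share the retinal libraries, and the batch difference is measured by the bridging libraries alone. Against ONH, 28 of 82 members were called lower in retina (34.1% of members, against 21.1% of all genes) and 0 higher (against 12.7%), with a median log2 fold change of -0.54. Against ONP, 6 were called lower (7.32%, against 19.9% of all genes) and 0 higher (against 12.9%), with a median of -0.27. The share called against ONP was thus below that of all genes. Oligodendrocyte markers summed to 50.6 to 158 CPM in retina IP, 27737 to 72951 CPM in ONH IP and 36199 to 124097 CPM in ONP IP, and microglia markers to 122 to 208 CPM, 292 to 2440 CPM and 375 to 3642 CPM. Astrocyte markers in the bridging libraries summed to 7176 CPM in ONH and 12843 CPM in ONP, below the batch 1 ranges of 18419 to 34400 CPM and 16830 to 41439 CPM. Rod markers in the bridging ONP library summed to 740 CPM, against 30.5 to 110 CPM in batch 1. Those in the bridging ONH library summed to 52489 CPM, against 106 to 910 CPM in batch 1. The part of these cell types in the members' values was not tested.

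These results turned on the treatment of batch. Without a batch term, 24 members were called higher in retina than in ONH (23.7% of all genes) and 39 higher than in ONP (25.8% of all genes), with medians of 0.71 and 0.75. Within batch 2, where each optic nerve region has 1 library, 0 members were called against ONH (3.62% of all genes lower) and 1 was called lower against ONP (4.71%), with medians of 0.04 and -0.40. The spread in that fit comes from the retinal libraries alone, and the lone ONH or ONP library is assumed to vary like them. Leaving out ONP replicate 7 gave 1 call against ONH (13.9% of all genes lower) and 0 against ONP (9.76%), with medians of -0.13 and 0.29. Leaving out ONH replicate 7 gave 48 calls lower in retina against ONH (15.3% of all genes) and 24 against ONP (17.3%), with medians of -0.99 and -0.59. For the family as a whole, no direction between retina and optic nerve held under all of these settings.

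**Figure D5:**
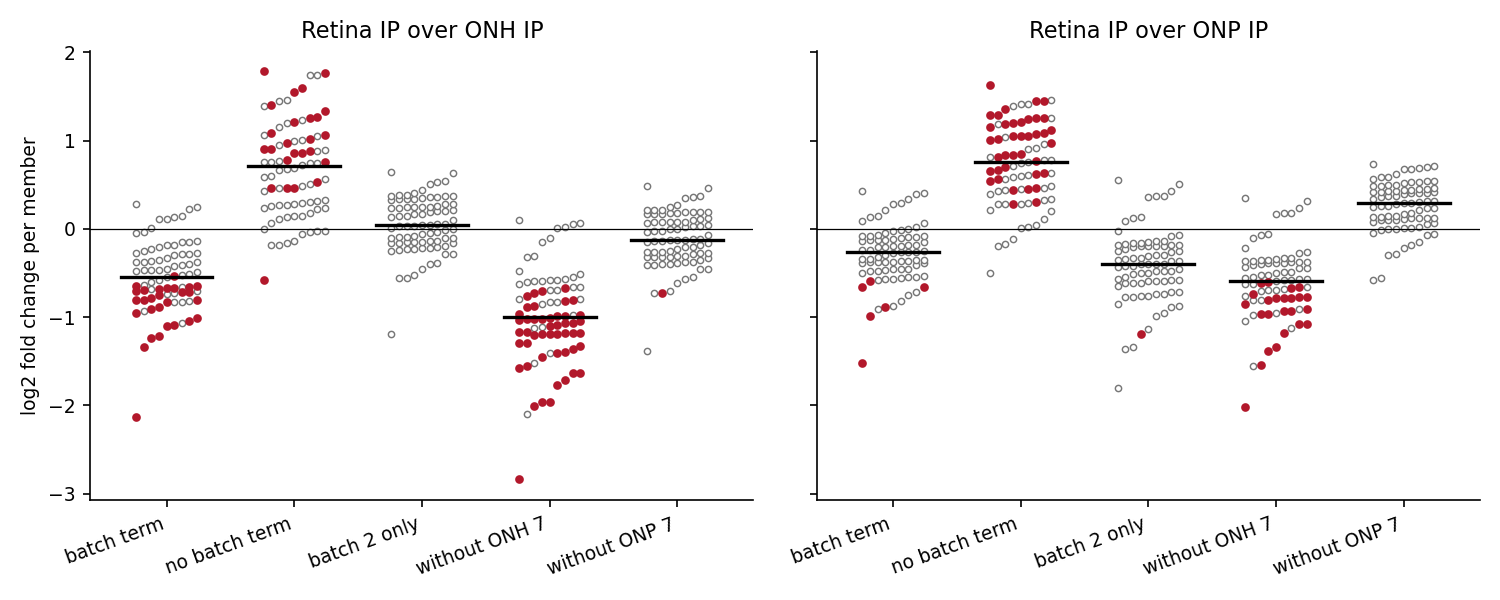
log2 fold change of 82 members for retina IP over ONH IP (left) and over ONP IP (right) under 5 settings: the batch term, no batch term, batch 2 only, and without each bridging library. Points are members, red at an adjusted p under 0.05, and bars are medians, which run from -0.99 to 0.71 against ONH and from -0.59 to 0.75 against ONP.

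The members called against ONH with the largest changes were Rps27l, Rpl41, Rps21, Rps12 and Rplp2. Rps27l (ENSMUSG00000036781, chromosome 9, 66946086 to 66949516, plus strand) had 10.4, 22.6 and 44.7 CPM in retina IP. It had 12.6, 19.9 and 33.9 CPM in the batch 1 ONH libraries and 64.4 CPM in the bridging ONH library, above all 6 retinal libraries. Its log2 fold change was -2.14 (adjusted p = 0.00255), and -1.19 within batch 2, where ONH is 1 library. Against ONP, with 9.51, 11.97 and 16.1 CPM in batch 1 and 102 CPM in the bridging library, it was -1.52 (adjusted p = 0.0151). It kept a negative estimate against ONH in every setting run, but against ONP it was at 0.02 without a batch term.

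Rpl41, which encodes the smallest ribosomal protein, had 76.5, 109 and 145 CPM in retina IP, 30.7, 47.5 and 70.4 CPM in batch 1 ONH IP and 182 CPM in the bridging ONH library. The retinal libraries thus lay above every batch 1 library and below the bridging library. Its log2 fold change was -1.34 (SE 0.345, adjusted p = 0.00553) with the batch term and 0.76 without it. The same order held for Rplp2, at 60.7, 76.7 and 87.1 CPM in retina IP, 24.4, 32.0 and 49.7 CPM in batch 1 ONH IP and 112 CPM in the bridging library. Rps12 was at -1.22 (adjusted p = 0.0124), Rps21 at -1.24 (adjusted p = 0.0198) and Rplp2 at -1.10 (adjusted p = 0.00757). The 6 members called against ONP were Rps27l, Rps12, Rpl41, Rpl21, Rpl30 and Rpl7a, and each was also called against ONH. Because the retinal libraries enter both comparisons, the overlap is no independent result.

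Other members had positive estimates that did not pass the test. Rplp0 was at 0.14 (adjusted p = 0.659) against ONH and 0.41 (adjusted p = 0.18) against ONP. Rpl3 was at 0.25 and 0.29, Rpl4 at 0.22 and 0.29, and Rpl7l1 at 0.12 and 0.39. Of the other stalk genes, Rplp1 was at -0.88 (adjusted p = 0.0162) and Rplp2 at -1.10 against ONH, with Rplp2 at 0.76 without a batch term, and differences between stalk genes were not tested.

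The fourth comparison set ONH against ONP, where 6 pairs of libraries lie in batch 1. On all 20 IP libraries edgeR called 0 of 82 members in either direction (4.43% of all genes higher in ONH), and DESeq2 called 3 higher (7.04% of all genes) and 0 lower. At an unadjusted p under 0.05, 19 members were higher in ONH (23.2%, against 12.6% of all genes) and 0 were lower. The median log2 fold change was 0.25, beside 0.02 over all genes. Within batch 1, 16 of 80 members tested were called higher in ONH (20%, against 8.57% of all genes) and 0 lower, 41 had an unadjusted p under 0.05 (51.2%, against 15.8%), and the median was 0.37. With libraries of the same number as pairs, batch 1 gave 19 calls (12.5% of all genes). Leaving out ONH replicate 7 gave 9 calls (3.97% of all genes), or 7 with the pairing (3.93%). Leaving out ONP replicate 7 gave 9 calls (4.06% of all genes), or 6 with the pairing (4.02%).

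The 5 members with the smallest unadjusted p were Rpl10a, Rps16, Rpl23a, Rplp2 and Rps15, all higher in ONH. Rpl10a (chromosome 17, 28328471 to 28331033, plus strand) had 32.2, 40.4 and 53.5 CPM in batch 1 ONH IP and 27.1, 29.6 and 34.4 CPM in batch 1 ONP IP. The ranges overlapped at their edges, and its log2 fold change was 0.41 (SE 0.127, adjusted p = 0.0525), and 0.43 (adjusted p = 0.046) within batch 1. With the pairing it was at 0.42 within batch 1 and was not called, while the other 4 of these members were. Rps16, near the decoding centre, had 21.5, 27.04 and 37.8 CPM in batch 1 ONH IP and 16.4, 18.9 and 21.5 CPM in batch 1 ONP IP. It was at 0.47 (adjusted p = 0.0665), and at 0.61 (adjusted p = 0.0194) within batch 1. Rpl23a, near the exit of the tunnel, was at 0.49 (adjusted p = 0.0834) and at 0.64 (adjusted p = 0.0178) within batch 1. The genes that share at least 50% of its 31-base words held 14.1% of the joint counts. Rplp2 was at 0.53 and Rps15 at 0.43, with adjusted p-values of 0.0949 and 0.0968, and within batch 1 at 0.68 (adjusted p = 0.0345) and 0.52 (adjusted p = 0.0497). Rps27l had the largest estimate within batch 1, at 0.82 (adjusted p = 0.0217).

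Other short genes were also called in this direction. Within batch 1, 173 of 589 short protein-coding genes were called higher in ONH, with a median of 0.43. So were 21 of 77 mitochondrial ribosomal protein genes (median 0.31) and 18 of 26 oxidative phosphorylation genes (median 0.52). Members, with 16 of 80 called (20%), had a smaller share called than each of these lists, though above the 8.57% of all genes. Longer members had smaller fold changes across the 80 tested, with Spearman's rho of -0.59 over members that share the same 12 libraries. Oligodendrocyte markers, 10 in all, summed to 27737 to 72951 CPM in batch 1 ONH IP and to 36199 to 124097 CPM in batch 1 ONP IP. Their part in these values was not tested.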

How the data were processed

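RNA was measured in 26 mouse libraries. Libraries were made from poly(A) RNA with a kit for very small inputs, per the labels' protocols. The deposited table holds estimated counts per gene, whole numbers as deposited, that the authors made with Salmon 1.6.0 against mm10, per the submitters' processing notes. The annotation they used is not given in the sources used here, and neither is strandedness. Symbols, biotypes and coordinates came from GENCODE M21, which named 54495 of 54532 genes. Shared sequence was measured as 31-base words of its transcripts. No column was left without a sample. No 2 libraries were identical.

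Members, gene lists and tests were chosen with earlier results of these data known. Tests used edgeR 4.0.16 in R 4.3.3 on all genes, with TMM factors, filterByExpr (minimum count 10, minimum total 15), the quasi-likelihood F test and Benjamini-Hochberg adjustment at 0.05. Retina IP against input used the 12 retinal libraries. Comparisons between regions used all 20 IP libraries with a batch term. CPM for levels used TMM factors over 26 libraries. Genes named were, per comparison, up to 5 called members per direction with the largest change and at least 10 CPM, or where none was called the 5 with the smallest unadjusted p under 0.05, the 3 highest and 3 lowest per kilobase, and a listed set of known members and paralogues. Of these, 1 is not reported here, and the plot of members by library leaves it out. The 11 members called without input replicates 1 and 2, and Rpl4, Rpl7a, Rpl18, Rpl31 and Rps25, were chosen after their values were seen.

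For ONH and ONP, libraries of the same number deviated together in all 7 pairs (correlation of deviations from 0.108 to 0.514). Pair 7, at 0.460, is the bridging libraries, where a shared batch cannot be told apart from a pairing. Fits with the pairs as a block are therefore given too. The main and batch 1 fits left the pairing out, and estimates are unpaired unless pairing is named. A fit with that block on all 20 IP libraries, which ties in the retinal libraries by number, also gave 0 calls. Fits with the block in batch 1 and without a bridging library were added after seeing the data. Alternatives were RLE factors, factors without members and mitochondrial genes, no filter, DESeq2 1.42.0, limma-voom 3.58.1, all libraries in 1 fit, a replicate block, other treatments of batch, and leaving out libraries. The scripts were tested on simulated data. Start sites came from RefSeq (GRCm38.p6). Figures used matplotlib 3.10.9.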

Additional observations from a re-analysis of the deposited data

Results flagged for a closer look

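Within each group the shares and the CPM of named members were searched for a library far from the rest, by the gap to its nearest neighbour over the range of the group (Dixon's criterion), in 76 sets of libraries, where chance gives about 1 in 20. Most of those found were the bridging libraries, each the highest of its 7.

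The bridging ONP library, replicate 7, held 1.10% of counts in members and a ratio of shorter to longer members of 0.633. Its CPM was 140 for Rplp1, 151 for Rplp2, 226 for Rps6, 42.1 for Rps12, 176 for Rps19, 93.2 for Rps27, 102 for Rps27l, 72.8 for Rpl10a, 33.6 for Rpl22l1, 62.3 for Rpl30 and 287 for Rpl41. The bridging ONH library, also replicate 7, had a ratio of 0.589. Its CPM was 93.8 for Rplp1, 112 for Rplp2, 17.8 for Rps12, 94.6 for Rps19, 47.7 for Rps27, 64.4 for Rps27l, 87.1 for Rpl10a and 182 for Rpl41. Both differ from the other libraries of their region in batch and in summed astrocyte markers, with 12843 CPM in the bridging ONP library against 16830 to 41439 CPM, and 7176 CPM in the bridging ONH library against 18419 to 34400 CPM. Summed rod markers differed too, with 52489 CPM in the bridging ONH library against 106 to 910 CPM. In the bridging ONP library they were 740 CPM against 30.5 to 110 CPM. Batch, library and cell content cannot be told apart.

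Input replicate 2 was highest in retina input for Rplp0, at 994 CPM, and for Rpl4, at 1238 CPM. It also held the largest mitochondrial share, 15.2%. Retina IP replicate 3 was highest in its group for Rpl30, at 38.0 CPM.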

How the results depend on the processing

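Counts of members in this section stand without the share of all genes beside them. They show how the counts vary with processing, not whether members exceed other genes. For retina IP against input, members called lower numbered 0 with edgeR, 11 without the low-count filter and 65 with DESeq2. They numbered 75 with all 26 libraries in 1 fit and 11 without input replicates 1 and 2. In that last fit the median log2 fold change was -0.51. There Rpl22 (0.078), Rps27l (0.41), Rpl18 (0.29), Rps10 (0.47), Rps19bp1 (0.24) and Rpl24 (0.021) turned positive, and none was called higher. Leaving out 1 of the 12 retinal libraries gave 0 to 2 calls. Without input replicates 1 and 2, alternatives chosen after seeing the data gave 17 calls with TMM factors taken without members and mitochondrial genes, 0 without the filter, 49 with DESeq2, 41 with all other libraries in 1 fit and 0 to 14 when a further library was left out.

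Against ONH, members called lower in retina numbered 9 without the filter, 1 with all 26 libraries, 1 without a batch term (24 higher), 0 within batch 2 and 0 with only the groups compared, with medians of 0.71 without a batch term, 0.040 within batch 2 and -0.084 with only the groups compared. Without a batch term Rpl41 (0.76), Rps21 (1.19), Rps12 (0.95) and Rplp2 (0.76) turned positive. Against ONP the calls numbered 1 without the filter, 0 with all 26 libraries, 0 without a batch term (39 higher, median 0.75), 1 within batch 2 and 26 with only the groups compared. Without a batch term Rps27l (0.015), Rps12 (0.60), Rpl41 (0.75), Rpl21 (0.44) and Rpl30 (0.29) turned positive. Leaving out 1 library gave 1 to 48 calls and medians of -0.99 to -0.13 against ONH, and 0 to 24 calls and medians of -0.59 to 0.29 against ONP, where Rps12 ran from -1.54 to 0.15 and Rpl30 from -1.08 to 0.10, both positive without ONP replicate 7.

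For ONH against ONP, members called higher numbered 1 with RLE factors, 1 with TMM factors taken without members and mitochondrial genes, 3 with DESeq2, 16 within batch 1, 1 with only the groups compared and 0 to 9 when 1 library was left out. At an unadjusted p under 0.05 they numbered 8 with limma-voom, 0 with all 26 libraries, 1 without a batch term, 41 within batch 1 and 6 to 47 when 1 library was left out. With the replicate block added, batch 1 gave 19 calls and 37 at an unadjusted p under 0.05, and leaving out ONH replicate 7 or ONP replicate 7 gave 7 and 6 calls, with 42 at an unadjusted p under 0.05 each time. The cause was not tested.

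In the retinal comparisons libraries of the same number did not deviate together in every pair (correlations from -0.141 to 0.269 with input, -0.181 to 0.167 with ONH and -0.083 to 0.057 with ONP). With the replicate block, 0 members were called against input, 11 against ONH, where Rplp0 was at -0.019, and 1 against ONP. The low counts of Rps10 and Rpl24 limit what can be said of them.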

Other observations

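Rps27l had the largest coefficient of variation of the tested members among the retinal IP libraries. In replicates 1 to 6 it had 10.4, 32.5, 44.7, 35.4, 12.6 and 12.6 CPM. In the same libraries the share of mitochondrially encoded transcripts was 0.384%, 1.03%, 2.11%, 2.23%, 0.155% and 0.259%. Its paralogue Rps27 had 31.5, 63.4, 56.4, 52.3, 39.6 and 46.5 CPM. No relation between these values was tested.

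Rps20 has the longest median coding transcript of the members, 3706 bases as annotated. Its log2 fold change for retina IP over input was -1.90 with all libraries and -0.92 without input replicates 1 and 2. The 41 shorter members had medians of -1.81 and -0.61. The length of the Rps20 RNA in these libraries was not measured, and all lengths used here are annotated ones.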
